A study of Homo sapiens with 4 samples.

Results

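Expression of the MEF2 transcription factors MEF2A, MEF2C and MEF2D and of the class IIa histone deacetylases HDAC4, HDAC5, HDAC7 and HDAC9 was compared between MV4-11R and MV4-11. These 7 genes, of 18417 measured, were chosen by their symbols in the platform annotation. Each was read by 1 probe set, so the rule of keeping the brightest probe set over the 4 arrays made no choice among them. MV4-11 is a human acute myeloid leukaemia line with an MLL fusion and an internal tandem duplication of the receptor kinase FLT3. MV4-11R was derived from it in 3 months of growth in rising concentrations of PKC412 (midostaurin), which inhibits FLT3 and other kinases, and it is labelled drug-resistant with low EZH2, against drug-sensitive with high EZH2 for MV4-11. Whether PKC412 was still present when the RNA was taken is not given in the sources used here. RNA was measured on 2 arrays of MV4-11R and 2 of MV4-11. MV4-11R is a single derived line, and the labels do not tie the arrays of a line to separate cultures. The p-values below therefore rest on array-to-array spread that could be purely technical.

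MEF2 factors bind an AT-rich DNA element through a MADS domain, which is shared by all family members, and switch target genes on or off according to their cofactors. Class IIa histone deacetylases have little deacetylase activity of their own on histones. They bind MEF2 directly and hold it in a repressed state through corepressor complexes that hold HDAC3. When kinases such as CaMK, protein kinase D and SIK phosphorylate them, 14-3-3 proteins carry them out of the nucleus and MEF2 is released. MEF2C is highly expressed in leukaemias with MLL fusions, where the kinase SIK3 keeps HDAC4 away from it.

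The MEF2 element is shown first in its place, because 3 of the 7 genes carried the MEF2 response element consensus near an annotated transcription start, as did JUN, a textbook MEF2 target. The windows run from 250 bases before to 50 bases after a start, are written 5′ to 3′ from RefSeq (GRCh38.p14), and have the matching bases in capitals.
MEF2A, chr15:99565734-99566033, plus strand: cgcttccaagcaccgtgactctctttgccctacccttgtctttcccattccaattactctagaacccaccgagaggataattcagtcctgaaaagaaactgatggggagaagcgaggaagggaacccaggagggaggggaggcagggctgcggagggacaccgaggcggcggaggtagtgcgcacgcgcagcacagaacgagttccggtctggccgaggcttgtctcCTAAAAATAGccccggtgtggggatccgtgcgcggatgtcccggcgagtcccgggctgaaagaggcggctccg
MEF2C, chr5:88824295-88824594, minus strand: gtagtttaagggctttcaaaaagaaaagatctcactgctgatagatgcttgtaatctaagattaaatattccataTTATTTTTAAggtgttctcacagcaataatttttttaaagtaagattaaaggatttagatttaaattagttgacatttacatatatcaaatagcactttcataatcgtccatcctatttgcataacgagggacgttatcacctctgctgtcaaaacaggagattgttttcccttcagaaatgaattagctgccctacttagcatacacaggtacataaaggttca
HDAC9, chr7:18086575-18086874, plus strand: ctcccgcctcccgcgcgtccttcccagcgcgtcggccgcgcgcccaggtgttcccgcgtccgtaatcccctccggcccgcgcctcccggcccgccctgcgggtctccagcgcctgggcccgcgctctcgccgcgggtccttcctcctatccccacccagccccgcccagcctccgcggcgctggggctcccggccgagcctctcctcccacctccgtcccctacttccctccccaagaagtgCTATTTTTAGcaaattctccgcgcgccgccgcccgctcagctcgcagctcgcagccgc
JUN, chr1:58783998-58784297, minus strand: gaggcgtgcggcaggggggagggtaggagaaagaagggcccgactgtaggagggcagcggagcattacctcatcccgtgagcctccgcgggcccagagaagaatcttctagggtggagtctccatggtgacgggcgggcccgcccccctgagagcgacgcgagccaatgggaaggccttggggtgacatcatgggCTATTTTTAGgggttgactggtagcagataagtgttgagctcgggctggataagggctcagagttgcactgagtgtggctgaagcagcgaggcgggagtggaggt

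The match began at -23 in MEF2A, -175 in MEF2C, -8 in HDAC9 and -55 in JUN, counted from the start. The consensus reads alike on both strands, so searching both gave no further matches. RefSeq windows were found for 6 of the 7 genes, all but HDAC5, and 3 of their 22 windows (13.6%) held a match, against 2.99% of all 35116 windows. Genes with many annotated starts have more chances of a match, and MEF2C had 7 windows, of which 1 matched. Of the 10 genes of the MEF2 target list with a window, 4 held a match (JUN, KLF2, HDAC9 and MYL1), against 3.67% of all 27305 genes with a window. HDAC9 is counted here and among the 7 genes. The list was made of genes already held to be MEF2 targets, so its higher share of matches is not an independent result. A match describes the letters in these windows and does not show that the factor binds there. The starts differed in base composition too. The 7 MEF2C windows ran from 28.7% to 64.7% G and C with 1 to 32 CpG dinucleotides, whereas the 3 MEF2A windows ran from 61.0% to 82.3% with 23 to 45, and the median over all windows was 58.7% with 14.

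All levels are log2 signal after RMA, the authors' normalization, and a negative difference means lower in MV4-11R. As a guide to background, 95% of 341 olfactory receptor genes, seldom expressed in blood, read below 6.26. Median signal of the 4 arrays lay between 6.75 and 6.78. A probe set's level cannot be set against that of another, and in bulk RNA fewer expressing cells and less RNA per cell cannot be told apart. A gene is said to have risen or fallen where limma's adjusted p over all genes was under 0.05. Of all genes 15.1% passed in either direction, 7.13% as falls and 7.92% as rises.

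MEF2C (Entrez gene 4208, chromosome 5), which drives muscle and B cell development as well as myeloid leukaemia growth, was far lower in MV4-11R. It read 6.63 and 6.74 on the MV4-11R arrays, against 11.83 and 11.92 on the MV4-11 arrays. The MV4-11R arrays stood just above the background guide, and the gap between the lines was many times the spread within either. The difference was -5.19 (SE 0.11), or 36.6-fold lower, the 2nd largest fall of all genes. MEF2C was already known as one of the largest falls when these genes were chosen, so its difference is a description and no test of it is given. RMA compresses differences near background, so the fold is not exact.

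**Figure D1:**
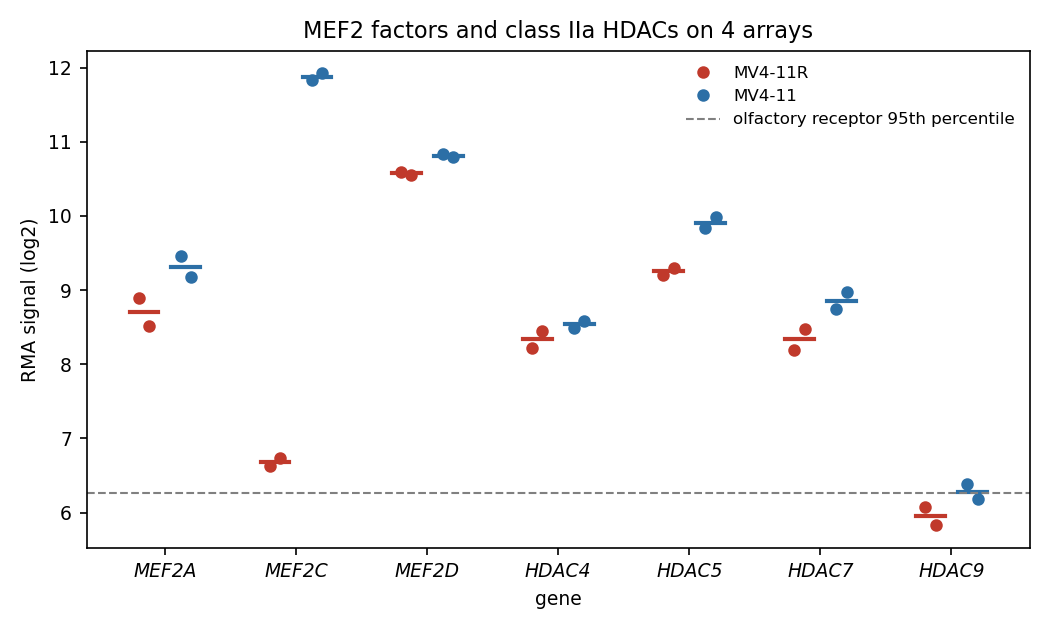
Log2 RMA signal of the 7 genes (x axis) on each array, with MV4-11R in red left of MV4-11 in blue. Points are arrays, bars are means of 2 arrays, and the dashed line is the background guide of 6.26. MEF2C averaged 6.68 in MV4-11R and 11.87 in MV4-11, while the other 6 genes lay within 0.66 log2 units between lines.

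The other MEF2 factors moved far less. MEF2A (Entrez gene 4205, chromosome 15), a broadly expressed family member, read 8.89 and 8.52 in MV4-11R, against 9.45 and 9.17 in MV4-11. The groups did not overlap, but the arrays of MV4-11R differed from each other by 0.37, more than the gap of 0.28 between the lines. The difference was -0.61 (SE 0.17, 95% interval -1.02 to -0.19, adjusted p = 0.0648). It passed without MV4-11R replicate 1, at -0.80 (adjusted p = 0.0438).

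MEF2D (Entrez gene 4209, chromosome 1), the partner in MEF2D fusions of acute lymphoblastic leukaemia, read 10.60 and 10.56 in MV4-11R, against 10.83 and 10.79 in MV4-11. Arrays of the same line agreed within 0.043, and the lines did not overlap. Its difference of -0.23 (SE 0.11, 95% interval -0.49 to 0.02, adjusted p = 0.215) did not pass. MEF2B shares its probe set with BORCS8 in the annotation and was not analysed here.

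HDAC5 (Entrez gene 10014, chromosome 17), best known for restraining MEF2 in heart muscle, was the 1 class IIa deacetylase that passed the test, as a fall. It read 9.21 and 9.30 in MV4-11R, against 9.84 and 9.98 in MV4-11. The lines were separated by 0.54, several times the difference between arrays of either line. It was 1.58-fold lower (difference -0.66, SE 0.11, 95% interval -0.94 to -0.38, adjusted p = 0.0166). It no longer passed without MV4-11R replicate 1 (adjusted p = 0.0610) or without MV4-11 replicate 2 (adjusted p = 0.0737).

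HDAC7 (Entrez gene 51564, chromosome 12), the class IIa deacetylase of endothelium, thymocytes and B cell precursors, read 8.19 and 8.48 in MV4-11R, against 8.74 and 8.97 in MV4-11. The arrays of each line were spread about as widely as the lines were apart. The difference of -0.52 (SE 0.15, 95% interval -0.88 to -0.16, adjusted p = 0.0678) did not pass, though it did without MV4-11R replicate 2, at -0.66 (adjusted p = 0.0489).

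HDAC4 (Entrez gene 9759, chromosome 2), the deacetylase that SIK3 keeps from MEF2C in leukaemia, read 8.22 and 8.45 in MV4-11R, against 8.49 and 8.59 in MV4-11. The higher MV4-11R array came within 0.034 of the lower MV4-11 array. The difference was -0.20 (SE 0.13, 95% interval -0.51 to 0.11, adjusted p = 0.385). Leaving out MV4-11R replicate 1 gave -0.084, and leaving out its replicate 2 gave -0.31.

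HDAC9 (Entrez gene 9734, chromosome 7), itself a MEF2 target and a brake on MEF2 in muscle, was at the level of background. It read 6.07 and 5.83 in MV4-11R, against 6.38 and 6.19 in MV4-11. The arrays of MV4-11R and the lower MV4-11 array were under the background guide. The difference was -0.33 (SE 0.14, 95% interval -0.67 to 0.0025, adjusted p = 0.177), and -0.45 or -0.21 once MV4-11R replicate 1 or replicate 2 was left out, in that order.

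All 7 genes had both MV4-11R arrays below both MV4-11 arrays, a pattern that 26.0% of all genes showed. Leaving out MEF2C, the other 6 ran from -0.66 to -0.20 with a median difference of -0.43, against 0.01 over all genes. Of these 6, 1 passed, against 15.1% of all genes in either direction. The median size of a difference over all genes, in either direction, was 0.17. These are the counts of 6 genes and no test of the family was made.

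**Figure D2:**
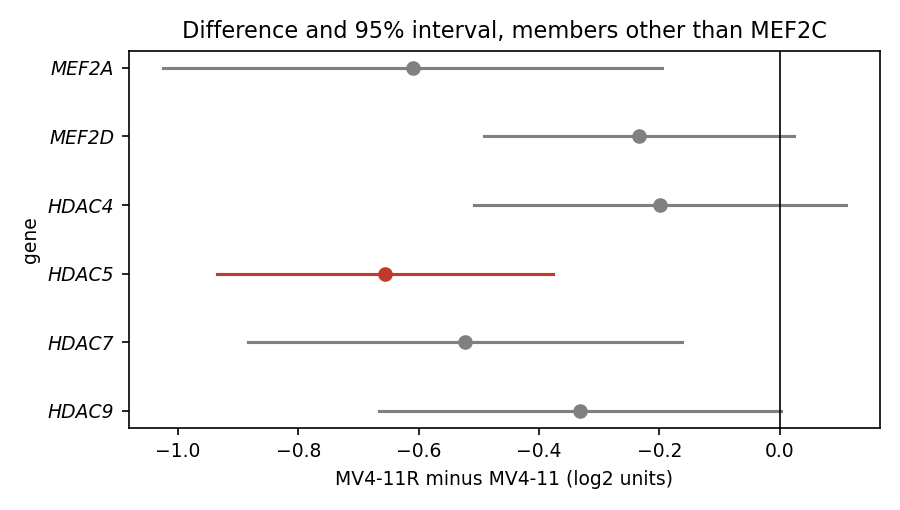
Difference between lines (x axis, MV4-11R minus MV4-11 in log2 units) for the 6 genes other than MEF2C (y axis), with the 95% interval from limma as a line. HDAC5, in red, passed at an adjusted p of 0.0166, and the intervals of MEF2A and HDAC7 also lay below 0 while their adjusted p values were 0.0648 and 0.0678.

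The genes around each of the 7 on its chromosome had median differences near 0. Over the 10 nearest measured genes on each side, the median difference was 0.05 around MEF2C, 0.12 around MEF2A, 0.03 around MEF2D, 0.01 around HDAC4, -0.05 around HDAC5, 0.11 around HDAC7 and 0.04 around HDAC9. Next to MEF2C, TMEM161B differed by 0.37 and CETN3 by 0.33, and neither passed. Of its 20 neighbours ARRDC3, an arrestin-domain gene, fell by 1.87 log2 units (adjusted p = 0.00147), KIAA0825 fell by 0.51 (adjusted p = 0.0499) and POLR3G, a subunit of RNA polymerase III, rose by 0.48 (adjusted p = 0.0403). These 3 were picked out after their values were seen. Leaving out any array ended the calls on KIAA0825 (adjusted p from 0.0622 to 0.191) and POLR3G (adjusted p from 0.0883 to 0.184). Of 20 neighbours each, 3 passed around HDAC4 (1 fall, 2 rises), 2 around HDAC7 (1 fall, 1 rise), 1 around MEF2A (a rise), 1 around MEF2D (a rise) and 1 around HDAC9 (a fall). Around HDAC5 0 of 20 passed limma's test, and 4 were at an unadjusted p under 0.05. At that unadjusted threshold the count was 7 around MEF2C, 6 around MEF2D, 5 around HDAC7, 3 around HDAC4, 3 around HDAC9 and 2 around MEF2A. Over all genes 15.1% passed the adjusted threshold in either direction, so 3 of 20 was close to that share. The share of all genes at the unadjusted threshold is not given here. It cannot be less than 15.1%, because an adjusted p is never below its unadjusted p. The unadjusted counts are therefore not read as an excess around any of the 7 genes.

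**Figure D3:**
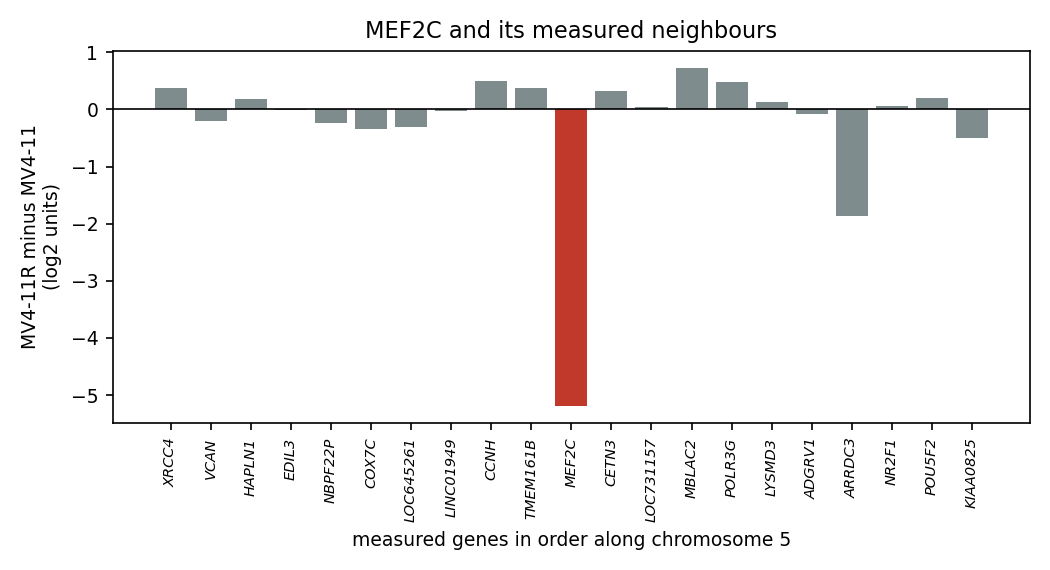
Difference between lines (y axis, MV4-11R minus MV4-11 in log2 units) for MEF2C, in red, and 10 measured genes on each side in order along chromosome 5 (x axis, evenly spaced). MEF2C stands at -5.19, ARRDC3 at -1.87, and the other bars lie between -0.51 and 0.73.

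The genes whose profile over the 4 arrays lay closest to that of MEF2C, each centred on its own mean, were HLA-DPB1 (distance 0.39 log2 units), EIF1AY (0.47), HLA-DPA1 (0.67), RPS4Y1 (0.82) and TMEM255A (0.84). HLA-DPB1 and HLA-DPA1 encode chains of an MHC class II molecule, and EIF1AY and RPS4Y1 lie on chromosome Y. HLA-DPB1 read 6.52 and 6.63 in MV4-11R, against 11.26 and 11.76 in MV4-11. The measure takes in the size of a difference, and with 4 arrays in 2 groups any genes of like difference come out as alike. For HDAC5 the closest were DAXX, ABCA3, GRAP, DKKL1 and PNPLA7, at distances from 0.029 to 0.044, with differences between -0.69 and -0.64.

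Among 15 measured kinases that phosphorylate class IIa deacetylases or activate those that do, 2 CaMKII genes fell and 13 did not pass limma's test, with a median difference of -0.05. None rose, and 4 were higher and 2 lower at an unadjusted p under 0.05. For this list and those that follow, the shares over all genes at the adjusted threshold were 7.13% for falls and 7.92% for rises. Shares at an unadjusted p under 0.05 are not given here. List counts at that unadjusted threshold thus have no share to be set against and are not read as results about a list. CAMK2D, a calcium/calmodulin-dependent kinase that exports HDAC4, read 7.26 and 8.02 in MV4-11R, against 9.02 and 9.11 in MV4-11. The MV4-11R arrays were far apart but both below MV4-11, and CAMK2D was 2.68-fold lower (difference -1.42, SE 0.24, adjusted p = 0.0156). CAMK2G, its paralogue, differed by -0.47 (SE 0.11, adjusted p = 0.0365), a call that ended when any array was left out (adjusted p from 0.0683 to 0.147). SIK3, named after its value was seen, read 9.15 and 9.03 in MV4-11R, against 9.39 and 9.12 in MV4-11, so the lines overlapped (difference -0.17, 95% interval -0.49 to 0.16, adjusted p = 0.505). Leaving out MV4-11 replicate 1 turned this into -0.033, and leaving out its replicate 2 into -0.30. The protein kinase D genes differed by 0.02 (PRKD1), 0.27 (PRKD2) and -0.22 (PRKD3), and none of these 3 passed (adjusted p from 0.169 to 0.950, and unadjusted p of 0.0476 for PRKD2).

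Of 11 measured kinases and calcineurin subunits that activate MEF2, 2 rose, 1 fell and 8 did not pass, with a median difference of 0.11. Calcineurin is the calcium-dependent phosphatase that dephosphorylates MEF2 and NFAT. Its catalytic subunit gene PPP3CC read 8.31 and 8.44 in MV4-11R, against 7.74 and 7.63 in MV4-11 (difference 0.69, SE 0.12, adjusted p = 0.0146), and PPP3CB was higher by 0.55 (SE 0.12, adjusted p = 0.0306). MAP2K6, the kinase that activates p38 MAP kinases, was lower by 0.77 log2 units (SE 0.19, adjusted p = 0.0494). Leaving out MV4-11 replicate 2 ended all 3 calls, with adjusted p of 0.0627 for PPP3CC, 0.127 for PPP3CB and 0.151 for MAP2K6. Leaving out MV4-11R replicate 1 ended those on PPP3CB (0.113) and MAP2K6 (0.159), and PPP3CB also failed to pass without MV4-11 replicate 1 (0.0724).

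No 14-3-3 gene passed limma's test. Of 7 measured, the median difference was 0.09, and the largest was of YWHAH, which read 10.88 and 11.12 in MV4-11R, against 10.76 and 10.60 in MV4-11 (difference 0.32, 95% interval -0.0053 to 0.64, adjusted p = 0.180). At an unadjusted p under 0.05 the count was also 0.

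Among 15 measured corepressors and coactivators of MEF2 and class IIa deacetylases, 0 rose by limma's test, 3 fell and 12 did not pass. The median difference was -0.28, and 2 were higher and 6 lower at an unadjusted p under 0.05. BCL6, a transcriptional repressor that recruits class IIa deacetylases, read 6.05 and 6.18 in MV4-11R, against 7.94 and 8.26 in MV4-11. It fell (difference -1.99, SE 0.14, adjusted p = 0.00159), but both MV4-11R arrays were below the background guide, so the size of the fall is not exact. NCOA2, a coactivator that binds MEF2C in muscle, read 9.06 and 8.87 in MV4-11R, against 10.29 and 10.14 in MV4-11 (2.37-fold lower, adjusted p = 0.00338). HDAC3, the active enzyme of the complexes that class IIa deacetylases recruit, read 11.32 and 11.41 in MV4-11R, against 11.78 and 11.84 in MV4-11 (difference -0.45, SE 0.11, adjusted p = 0.0450).

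Of 14 sirtuins and deacetylases outside class IIa, 0 rose by limma's test, 2 fell and 12 did not pass. The median difference was -0.11, and 1 was higher and 4 lower at an unadjusted p under 0.05. The falls were of HDAC3 and of HDAC6, a mostly cytoplasmic tubulin deacetylase, which differed by -0.50 (SE 0.12, adjusted p = 0.0455). Neither passed with any array left out, HDAC3 ranging from 0.0784 to 0.176 in adjusted p and HDAC6 from 0.0520 to 0.179. HDAC1 and HDAC2, the class I enzymes of most nuclear corepressor complexes, differed by 0.11 and 0.19 (adjusted p = 0.611 and 0.397).

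The listed MEF2 targets did not move one way. Of 14 measured, 1 rose, 1 fell and 12 did not pass, and the median difference was 0.03, against 0.01 over all genes. PPARGC1A and MYL1 averaged below the background guide in both lines, and HDAC9, a member itself, read near it. CKM, DES and MYOG are also among the muscle markers read below. These counts therefore do not measure MEF2 activity in the 2 lines. JUN, the AP-1 subunit whose start is printed above, read 7.92 and 8.29 in MV4-11R, against 6.88 and 7.10 in MV4-11. Every MV4-11R array was above MV4-11, and JUN was 2.17-fold higher (difference 1.12, SE 0.16, adjusted p = 0.00991). DES, which encodes the muscle filament desmin, read 7.45 and 7.92 in MV4-11R, against 9.54 and 9.37 in MV4-11 (3.41-fold lower, difference -1.77, SE 0.18, adjusted p = 0.00338). NR4A1, an immediate early nuclear receptor, and KLF2, a zinc finger factor, differed by 0.13 (adjusted p = 0.538) and 0.35 (adjusted p = 0.123). The haematopoietic factors LMO2, LYL1 and HHEX differed by -0.05, 0.04 and 0.08.

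Of 10 measured partners and regulators of MEF2C in blood cells, 1 rose, 1 fell and 8 did not pass, with a median difference of 0.02. IRF8, a factor of monocyte and dendritic cell development that is linked to MEF2D in leukaemia, read 10.33 and 10.51 in MV4-11R, against 11.90 and 11.86 in MV4-11. It was 2.75-fold lower (difference -1.46, SE 0.12, adjusted p = 0.00192). SPI1, which encodes the myeloid factor PU.1, overlapped between the lines at 11.34 and 11.47 in MV4-11R, against 11.37 and 11.52 in MV4-11. PAX5, a B cell factor, read 7.70 and 7.26 in MV4-11R, against 6.70 and 6.67 in MV4-11 (difference 0.80, SE 0.16, adjusted p = 0.0274). PAX5 did not pass when MV4-11R replicate 1 (adjusted p = 0.0619), MV4-11 replicate 1 (0.0708) or MV4-11 replicate 2 (0.0773) was left out.

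**Figure D4:**
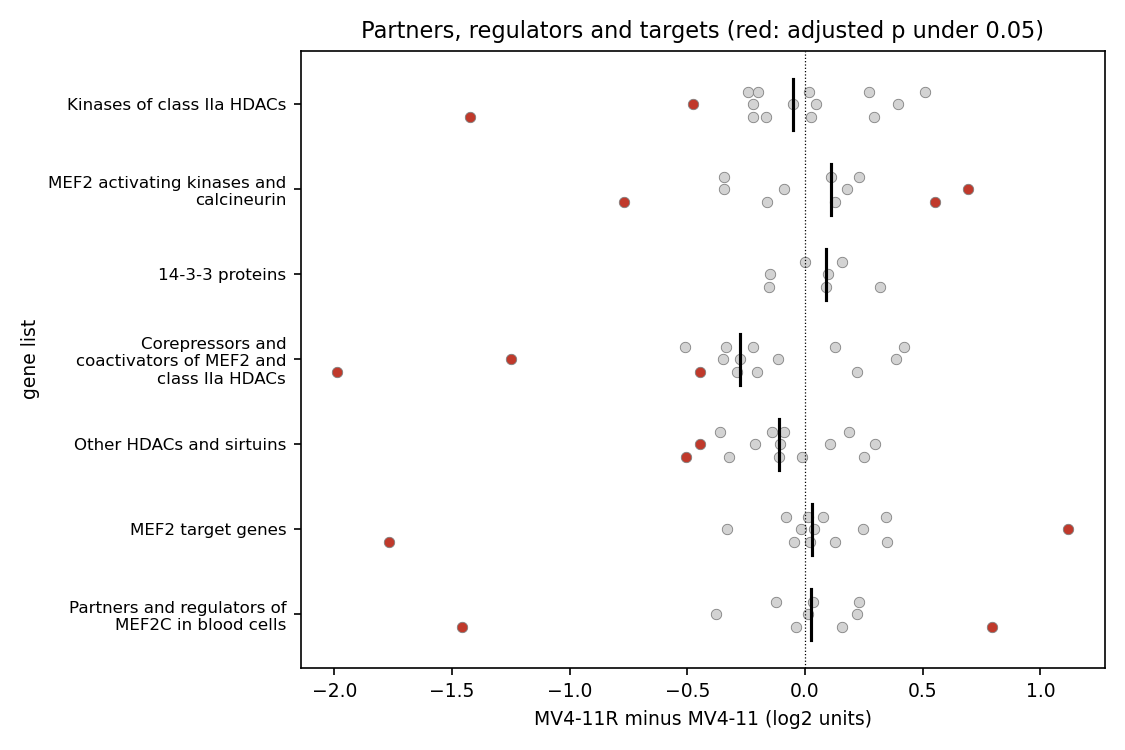
Difference between lines (x axis, MV4-11R minus MV4-11 in log2 units) for each measured gene of 7 lists (y axis). Points are genes, red where the adjusted p was under 0.05, and black bars are list medians, which ran from -0.28 for corepressors and coactivators to 0.11 for activating kinases and calcineurin.

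The microRNA miR-223, which represses Mef2c in mouse granulocyte precursors, was looked at as well, outside the lists and after its values were seen. Its sequence is printed because its seed, bases 2 to 8 in capitals, sets which messages it pairs with.
hsa-miR-223-3p: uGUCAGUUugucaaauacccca
The MIR223 probe set, which does not tell precursor from mature RNA, read 10.37 and 10.58 in MV4-11R, against 9.22 and 9.59 in MV4-11. Both MV4-11R arrays were higher, by 1.07 on average (2.10-fold, SE 0.16, adjusted p = 0.0109). No target site was looked for in MEF2C.

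MEF2C is also a gene of B cells, muscle and monocytes, and markers of cell types were read beside it. Of 9 measured myeloid genes 4 fell, against 7.13% of all genes, and the median difference was -0.69. The falls were of CSF1R (-1.73), FLT3 (-0.93), PTPRC (-0.81) and LYZ (-0.69). The other 5 did not pass limma's test. They were ITGAX (-1.01, adjusted p = 0.0844), CD4 (-0.64, 0.0570), SPI1 (-0.04, 0.889), CD14 (0.77, 0.0855) and MPO (0.47, 0.216). The summed linear signal of the 9 genes, in which bright probe sets such as that of LYZ weigh most, was 12053 to 13487 in MV4-11R, against 18941 to 21208 in MV4-11. Of 4 B cell markers PAX5 rose and CD79B fell by 1.09 log2 units (adjusted p = 0.00899), MS4A1 read below the background guide in both lines, and the sums were 531 to 566 in MV4-11R and 561 to 624 in MV4-11. Of 5 muscle markers DES fell and the other 4 did not pass, differing by -0.08 (CKM) to 0.13 (ACTA1). Their sums were 774 to 851 in MV4-11R and 1257 to 1317 in MV4-11, a gap that lay in DES. All 5 T cell markers read below the guide in both lines, and none passed limma's test or had an unadjusted p under 0.05. Of 5 erythroid and megakaryocytic markers and 6 epithelial and fibroblast markers 1 each fell, ITGA2B and KRT18. The part of these markers in the MEF2C difference was not tested.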

How the data were processed

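Total RNA was labelled with biotin and hybridised to Affymetrix arrays, per the labels' protocols. The deposited log2 values, 1 per probe set and array, were made by the authors with RMA. The submitters' processing notes name Affymetrix Expression Console for this, and versions are not given in the sources used here. No genome build is named, and no positions of probe sets are given. Of 33297 probe sets the platform annotation paired 19460 with 1 gene, whose symbols were updated by Entrez ID through RefSeq (31 IDs unmatched), and 1754 with several genes, which were left out. The brightest probe set per gene gave 18417 genes, with no filter on level. Each gene was tested with limma 3.58.1 (R 4.3.3, lmFit and eBayes, 2-sided, Benjamini-Hochberg over all genes). The model had 2 residual degrees of freedom, and 6.06 in total once eBayes had borrowed variance from all genes. The p-values and intervals use that total. A model with an array left out has fewer residual degrees of freedom, so a call lost there can also reflect lost power. The fit was tested on simulated data. The number of arrays limits the precision. The members and gene lists were chosen with earlier results of these data known. Besides the members, the text names up to 4 called rises and 4 called falls per list, or the largest difference where none passed, and the 5 closest profiles. All other genes named were picked with their values known. Listed genes beyond the measured number are not analysed here. The alternatives were leaving out each array, a replicate block, median centring, quantile normalization, a filter at the 25th percentile of level, the mean of a gene's probe sets, every probe set tested, and a trended variance prior.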

Additional observations from a re-analysis of the deposited data

How the results depend on the processing

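Under all 11 alternatives the 7 members kept the sign of their difference, and MEF2C ran from -5.25 to -5.14. Most of these alternatives could not have changed a sign. Leaving out an array cannot do so where both MV4-11R arrays lie below both MV4-11 arrays, as for all 7. The replicate block, level filter, probe set and variance prior settings left the members' differences as they were. The number of genes called was 2772, and it was 1505 when all 33297 probe sets were tested, which adds unlisted probe sets to the adjustment, and 1588 to 2479 with an array left out. HDAC5 was -0.66 with every probe set tested (adjusted p = 0.0543), and with an array left out it ran from -0.73 to -0.58. With an array left out MEF2A ran from -0.80 to -0.42 and HDAC7 from -0.66 to -0.38. Same-numbered arrays share only a number, although their deviations from the line means correlated at 0.262 across genes, which are not independent replicates. With the replicate block 3642 genes were called, and MEF2A (-0.61, adjusted p = 0.0162) and HDAC7 (-0.52, adjusted p = 0.0237) passed. Of the 14 genes that the naming rule took from the pathway lists, 6 kept their side of the threshold under every alternative run. BCL6, DES, IRF8, JUN and NCOA2 stayed called, whereas YWHAH was not called in the main fit or in any alternative. CAMK2D, CAMK2G, HDAC3, HDAC6, MAP2K6, PAX5 and PPP3CB lost their call with every probe set tested, and MAP2K6 also with median centring (adjusted p = 0.0518) and with the mean of a gene's probe sets (0.0506). With 2 arrays a line, signal near background limits what HDAC9 can show.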
